A study of Mus musculus with 3 samples.

Results

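Among fibroblasts of the mouse skin wound at day 2 was a set of cells rich in Cxcl14 messenger RNA, and it is described here by its working label, Cxcl14 Gdf10 fibroblasts. Each value was a raw count of unique molecular identifiers (UMIs, counted RNA molecules) per gene and cell barcode. A barcode counted as a fibroblast with at least 1 UMI of Pdgfra, the receptor for platelet-derived growth factor that fibroblasts carry, and at most 1 UMI of Ptprc, the CD45 gene of blood cells. Members also had at least 10 UMIs of Cxcl14, more UMIs of Cxcl14 than of the neutrophil-attracting chemokine Cxcl5, and fewer than 5 UMIs summed over the mitosis genes Top2a, Mki67, Ube2c and Birc5. These limits chose 466 barcodes of the 3987 day 2 fibroblast barcodes (11.7%, exact Clopper-Pearson 95% interval 10.7 to 12.7), of 8707 barcodes in the day 2 library and of 26881 in the series. Members were thus chosen by measured values, and the day 2 levels of Cxcl14, Cxcl5, Pdgfra, Ptprc and the mitosis genes were set by that choice and are given only as a description. Gdf10, the other gene of the label, was high in only a part of the members, as the values below show, so the set is called Cxcl14-high fibroblasts from here on.

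Skin came from male C57BL/6 mice aged 7 to 9 weeks and wounded in telogen, the resting phase of the hair cycle, with a full-thickness wound of 1.0 by 0.5 cm on either side of the back. There was 1 library each of non-lesional dorsal skin (CTRL), wound bed at day 2 (PWD2) and wound bed at day 7 (PWD7), from tissue digested with collagenase D and DNase1 and run on the 10x 3′ v2 chemistry. The labels give no genetic change or added agent in any group, do not give the number of mice behind a library, and CTRL was not wounded. With 1 library per group there is no test between groups: intervals are 95% and cover counting error only, and p-values are not given. The title of the series places it in the interplay of IL1 and WNT signals in dermal adipocyte lineage cells. Library totals were 123088680 UMIs in CTRL, 138046172 in PWD2 and 102345327 in PWD7. Cxcl14-high fibroblasts had a median of 19124 UMIs per barcode (1017 to 107288), against 30373 in the other 3521 day 2 fibroblasts and 10081 in 5087 CTRL fibroblasts. In what follows a level is given in CPM, the UMIs of a gene per 1000000 UMIs summed over a group. A ratio compares 2 such levels, and a gene is called higher or lower where its log2 fold, with 5 CPM added to both levels, reached 1 or -1.

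Cxcl14 is a chemokine made by many fibroblasts and epithelial cells and draws in monocytes and dendritic cells. Cxcl12 acts through the receptor Cxcr4 and holds or attracts blood and stem cells. Gdf10, also called BMP3b, is a divergent member of the TGF-beta family, Sfrp1 is a secreted protein that binds WNT ligands, and Steap4 is a metalloreductase of adipose tissue that inflammatory signals induce. In the dermis and in fat depots, fibroblasts of the adipocyte lineage range from interstitial progenitors with Pi16 and Dpp4 to committed preadipocytes with Icam1, Col4a1, Lpl and Fabp4. Interleukin 1 acts on fibroblasts through NF-kB and induces neutrophil-attracting chemokines, colony stimulating factors and acute phase proteins.

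Cxcl14 chose the members, and Gdf10, Thbs4 and Cilp, the leading genes of different clusters among them, are used to describe how they vary. Thbs4 encodes thrombospondin 4 and Cilp a cartilage intermediate layer protein, both matrix proteins. In the GRCm38 build of the mouse genome with GENCODE M21, Cxcl14 (ENSMUSG00000021508) lies at chr13:56288643-56296551 on the minus strand and Gdf10 (ENSMUSG00000021943) at chr14:33923587-33937983 on the plus strand. Thbs4 (ENSMUSG00000021702) lies at chr13:92751590-92794818 on the minus strand and Cilp (ENSMUSG00000042254) at chr9:65265180-65280605 on the plus strand. The 200 bases before each start site follow, read from the RefSeq promoter table (GRCm38.p6) on the strand of the gene, with capitals at each GGGCGG on either strand. These windows are chr13:56296552-56296751 for Cxcl14, chr14:33923387-33923586 for Gdf10, chr13:92794819-92795018 for Thbs4 and chr9:65264980-65265179 for Cilp.
Cxcl14: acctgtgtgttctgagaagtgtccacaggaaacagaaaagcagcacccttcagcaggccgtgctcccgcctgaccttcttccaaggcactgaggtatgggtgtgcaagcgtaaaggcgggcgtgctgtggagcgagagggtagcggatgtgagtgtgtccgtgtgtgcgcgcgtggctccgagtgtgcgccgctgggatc
Gdf10: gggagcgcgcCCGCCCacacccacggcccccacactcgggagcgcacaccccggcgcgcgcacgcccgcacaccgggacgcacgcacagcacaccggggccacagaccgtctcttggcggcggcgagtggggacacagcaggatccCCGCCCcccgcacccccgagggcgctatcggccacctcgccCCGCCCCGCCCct
Thbs4: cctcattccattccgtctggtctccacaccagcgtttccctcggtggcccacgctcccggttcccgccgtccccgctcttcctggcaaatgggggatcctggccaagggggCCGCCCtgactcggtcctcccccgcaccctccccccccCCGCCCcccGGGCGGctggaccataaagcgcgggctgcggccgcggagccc
Cilp: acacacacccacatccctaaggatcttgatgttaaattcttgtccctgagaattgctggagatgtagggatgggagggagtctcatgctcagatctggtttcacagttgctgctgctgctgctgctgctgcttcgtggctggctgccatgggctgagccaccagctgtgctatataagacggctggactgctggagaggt
The Gdf10 window held 4 GGGCGG matches, of which the last pair overlap by 1 base, the Thbs4 window held 3, and those of Cxcl14 and Cilp held none. Of all 32851 windows of this length in the table, 31.0% held at least 1 GGGCGG on either strand. TATAAA and CCAAT were searched on both strands too and were in none of the 4 windows, against 9.96% and 29.3% of all windows. A match or its absence describes letters in this window only.

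Applied in steps, the limits left 1450 day 2 fibroblast barcodes with at least 10 Cxcl14 UMIs, 917 of them with more Cxcl14 than Cxcl5, and 466 of those under the limit on mitosis genes. The 451 barcodes lost in the last step were dividing cells with high Cxcl14, or 22.1% of the 2042 dividing day 2 fibroblasts, and they are used further on. Cxcl14-high fibroblasts made up 24.0% of the 1945 day 2 fibroblasts that were not dividing. The same limits found 69 of 5087 CTRL fibroblasts (1.36%, 1.06 to 1.71) and 35 of 2430 PWD7 fibroblasts (1.44%, 1.01 to 2.00). The minimum of 10 UMIs is harder to reach in the shallower CTRL barcodes. With 400 Cxcl14 CPM in its place, the counts were 508 in PWD2, 282 in CTRL and 41 in PWD7.

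At the edge of the limits, the 12 members with 10 or 11 Cxcl14 UMIs had 136 Gdf10 CPM, and the 15 barcodes with 8 or 9 that missed the limit had 148. The 75 members with 3 or 4 mitosis gene UMIs had 164 Gdf10 CPM, against 129 in 41 Cxcl14-high barcodes with 5 or 6. Where Cxcl14 was at most 2 times Cxcl5, 71 members had 77.2 Gdf10 CPM, and the 67 barcodes just past that limit had 48.8. Gdf10 was present on both sides of each limit, and the limits did not fall at a gap in its level.

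Cxcl14 itself ranged from 10 to 820 UMIs per member, with a median of 59.5 and quartiles of 29 and 119.8. Its level was 4322 CPM in Cxcl14-high fibroblasts, 736 in the other day 2 fibroblasts, 265 in the 1112 non-dividing day 2 fibroblasts with at least 10 Cxcl5 UMIs and no excess of Cxcl14 (Cxcl5-high fibroblasts) and 59.8 in CTRL fibroblasts. Cxcl5 was 867 in members, 2789.6 in the other day 2 fibroblasts and 3859.6 in Cxcl5-high fibroblasts, while all 5087 CTRL fibroblasts together held 3 Cxcl5 UMIs. Members were not free of Cxcl5: 85.4% had a UMI, with a median of 5.

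The 4 label markers that the limits did not use were higher in Cxcl14-high fibroblasts than in the other day 2 fibroblasts and in CTRL fibroblasts. Gdf10 stood at 193 CPM in members, 31.1 in the other day 2 fibroblasts, 17.6 in Cxcl5-high fibroblasts and 27.1 in CTRL fibroblasts. The ratio to the other day 2 fibroblasts was 6.22-fold (5.88 to 6.58) and that to CTRL fibroblasts 7.14-fold (6.68 to 7.63). Sfrp1 (ENSMUSG00000031548, chr8:23411502-23449632, plus strand) stood at 234, 54.2, 28.2 and 71.6 in the same order, 4.32-fold (4.11 to 4.53) above the other day 2 fibroblasts. Cxcl12 (ENSMUSG00000061353, chr6:117168535-117181367, plus strand) stood at 1232, 538, 617 and 105, a ratio of 2.29-fold (2.25 to 2.34) to the other day 2 fibroblasts and of 11.7-fold (11.4 to 12.1) to CTRL fibroblasts. Steap4 (ENSMUSG00000012428, chr5:7960457-7982213, plus strand) stood at 264, 127, 136 and 16.0, a ratio of 2.08-fold (1.99 to 2.17) and 16.5-fold (15.3 to 17.8). These CTRL levels are means over unlike cells. In a cluster of 219 CTRL fibroblasts described further on, with both genes among its leading genes, Steap4 stood at 349 and Gdf10 at 368, above the levels in members. Against Cxcl5-high fibroblasts, Gdf10 was 10.98-fold (9.97 to 12.1) and Sfrp1 8.29-fold (7.66 to 8.97) higher, while Cxcl12 and Steap4 had log2 folds of 0.99 and 0.93 and just missed the limit. Gdf10 and Sfrp1 thus set members apart from their day 2 neighbours more than Cxcl12 and Steap4 did, and the latter were also higher in the other day 2 fibroblasts than in CTRL.

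**Figure D1:**
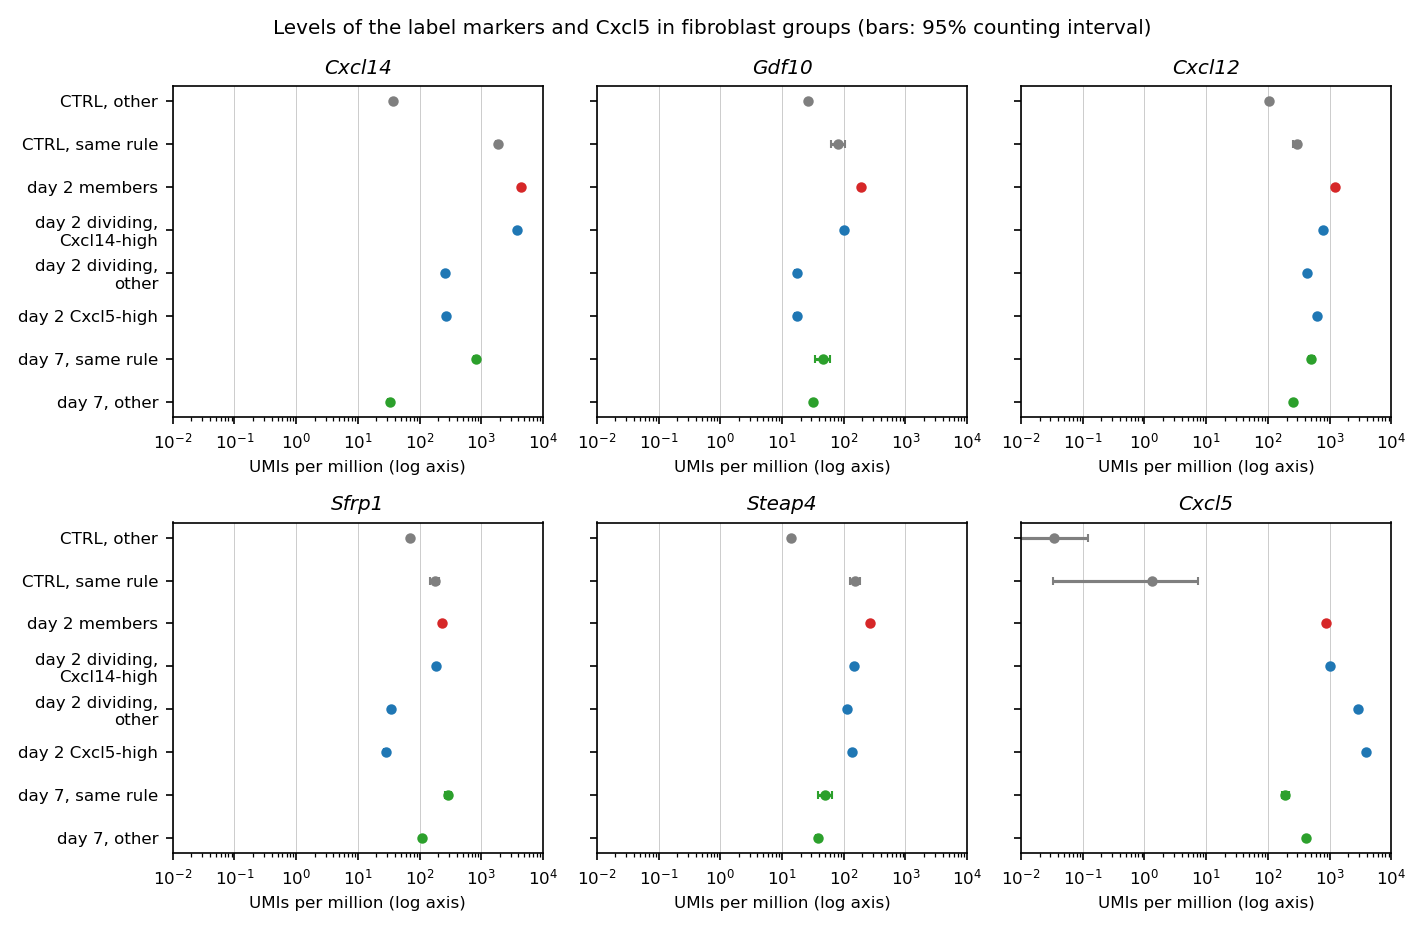
Levels of the label markers Cxcl14, Gdf10, Cxcl12, Sfrp1 and Steap4 and of Cxcl5, in CPM (UMIs of a gene per 1000000 UMIs) on a log axis, for each group of fibroblast barcodes; points are the summed level of a group (CTRL in grey, day 2 members in red, other day 2 groups in blue, day 7 in green) and bars its 95% Poisson interval for counting error. Gdf10 is at 193 CPM in day 2 members, at 17.6 in Cxcl5-high fibroblasts and at 32.1 in the other day 7 fibroblasts.

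The 4 markers were not found in every member. A Gdf10 UMI was in 53.6% of members, and 216 of 466 had none. The upper quartile was 5 UMIs and the highest member had 60. The share with a Gdf10 UMI was 27.9% in the other day 2 fibroblasts, 20.6% in Cxcl5-high fibroblasts, 16.1% in CTRL fibroblasts and 0.821% in 975 day 2 barcodes with at least 2 Ptprc UMIs and no Pdgfra, blood cells that should lack the gene and whose median depth was 2075 UMIs. With every barcode thinned to 3000 UMIs, which left out 8 members, the share was 32.8% in members, 7.60% in the other day 2 fibroblasts, 4.41% in Cxcl5-high fibroblasts, 6.97% in CTRL fibroblasts and 1.12% in the blood cells. The share in members stood far above that of the blood cells at equal depth, although thinning kept only 356 of the 975 blood cells. Thinned in the same way, an Sfrp1 UMI was in 36.0% of members and 10.3% of the other day 2 fibroblasts, a Steap4 UMI in 42.8% and 27.1%, and a Cxcl12 UMI in 84.9% and 62.3%. All 4 were present together in 142 of 466 members and in 27 of 458 after thinning, so a minority of members showed the whole label.

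The set was of fibroblast type by its markers. All 12 fibroblast markers had UMIs in members, but Pdgfra among them was required by the limits. They summed to 42041 CPM, against 33991 in the other day 2 fibroblasts and 124734 in CTRL fibroblasts. In the day 2 blood cells, chosen without Pdgfra, 11 had UMIs and the sum was 2531 CPM, so the level and not the presence of UMIs differed. Col1a2 accounted for much of the CTRL sum, with 10902 CPM in members and 48418 in CTRL. Of 10 mature adipocyte markers, 6 had a UMI and the sum was 6.01 CPM, with Cidec, Lep, Plin1 and Plin4 at 0 and 4 UMIs of Adipoq in all members together. A gene at 0 in members lay below 0.306 CPM, the level of 3 UMIs over the group. Dermal papilla markers summed to 154 CPM, 145 of it from Crabp1, and Corin, Lef1 and Sox2 were at 0. The pericyte or smooth muscle list was present with all 9 markers and summed to 139.7 CPM, against 84.1 in the other day 2 fibroblasts. Acta2 (alpha smooth muscle actin) stood at 96.2 and 66.3 within it, and Abcc9, a potassium channel subunit, at 26.8 and 5.26. The part of other cells in these levels was not tested.

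Neutrophil markers summed to 192 CPM in members, 267 in the other day 2 fibroblasts and 33086 in day 2 blood cells. At least 10 UMIs of S100a8 and S100a9 together were in 20 of 466 members and 189 of the other 3521. Of 9 keratinocyte markers, 4 had a UMI in members, with a sum of 16.6 CPM, and Krt14, Krt15, Krt17, Dsp and Epcam were at 0. Without 40 members among the highest doublet scores the set held 426 barcodes. Of the member barcodes, 1 also occurred in CTRL and 1 in PWD7.

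Against the other day 2 fibroblasts, Cxcl14-high fibroblasts had higher levels of 10 of 14 committed preadipocyte genes, with none lower, 3 of 17 collagens, 3 of 28 other matrix genes and 1 of 16 growth factors, with 1 lower. Of 7614 genes compared, 88 (1.16%) were called higher and 136 (1.79%) lower, with a median log2 fold over all genes of -0.09. Barcodes with at least 5 UMIs summed over the mitosis genes were left out by choice. That limit bears on the cell cycle list, with 15 of 24 genes lower. Members were not free of cell cycle RNA: 229 of 466 had no mitosis gene UMI, and 75 had 3 or 4. A Cdk1 UMI was in 23.8% of members and 59.0% of the others. Against the 1479 other day 2 fibroblasts that were not dividing, the median of the cell cycle list was 0.05. The named genes with the highest ratios were Mgp, Gas6, Cilp, Igfbp5, Gdf10, Smoc2, Igf1, Thbs4, Mgst3, Lum, Apoe and Fxyd6.

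Mgp, matrix Gla protein, an inhibitor of calcification, stood at 258 CPM in members and 11.7 in the other day 2 fibroblasts, 22.0-fold (20.6 to 23.5) higher, and 35.0% of members had a UMI against 8.66%. Gas6, the ligand of the Axl and Mertk receptors that help macrophages clear dead cells, stood at 182 and 15.4, 11.8-fold (11.01 to 12.6) higher. Igf1, insulin-like growth factor 1, stood at 291 and 51.0, 5.70-fold (5.45 to 5.97) higher, and a UMI was in 69.3% of members against 42.8%. Cilp and Thbs4 rested on fewer barcodes, with a Cilp UMI in 20.6% of members (4.03% of the others) and a Thbs4 UMI in 10.5% (8.07%). Cilp stood at 52.1 and 3.14 CPM and Thbs4 at 106 and 16.7. Igfbp5, a binding protein for insulin-like growth factors, stood at 285 and 45.0, and Smoc2, a secreted calcium-binding matrix protein, at 154 and 24.99. An Igfbp5 UMI was in 35.2% of members and 22.3% of the others, and members had a median of 0 and a highest value of 472 UMIs. Lum (lumican, a collagen-binding proteoglycan) stood at 296 and 62.8, and Apoe, the lipid-carrier apolipoprotein E, at 101 and 20.6. Outside the cell cycle, Csf2, the cytokine GM-CSF, was the named gene on the lower side, at 9.58 CPM in members and 69.4 in the others, 7.25-fold (5.91 to 8.98) lower.

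Cxcl5-high fibroblasts are a like class of the same library, with barcodes of at least 5 mitosis gene UMIs left out on both sides. This comparison uses the same members as the one before, and Cxcl5-high fibroblasts are a part of the other day 2 fibroblasts. Here 94 of 7500 genes (1.25%) were called higher in Cxcl14-high fibroblasts and 93 (1.24%) lower, with a median over all genes of -0.06. The committed preadipocyte list, like the other lists, was written with earlier results of these data known. It had 8 of 13 compared genes higher and none lower, with a median log2 fold of 1.19. Apoe stood at 101 and 8.90 CPM, 11.3-fold higher, and Col15a1, a basement membrane collagen, at 87.8 and 7.94. Col4a1, the main basement membrane collagen chain, stood at 699.7 and 172, 4.08-fold (3.93 to 4.23) higher, and its partner Col4a2 at 289 and 70.7. Lpl, lipoprotein lipase, stood at 152 and 55.3, and Fabp4, a fatty acid binding protein, at 71.0 and 28.2. Icam1, a defining surface protein of committed preadipocytes, was at 59.8 and 68.4, a log2 fold of -0.18 that did not pass the limit. This list overlaps the label, since Cxcl12 is a member of it. Over the member clusters described further on, Lpl stood at 66.4, 79.1, 321 and 204 and Fabp4 at 22.6, 49.2, 130 and 102. Col4a1 stood at 650, 515, 1106 and 669. The first value of each belongs to the cluster with the highest Gdf10 level, where Fabp4 was not above Cxcl5-high fibroblasts.

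The interstitial progenitor list went the other way, with 4 of 11 compared genes lower, none higher and a median of -0.84. Pi16, a peptidase inhibitor, stood at 119.8 CPM in Cxcl14-high and 250.2 in Cxcl5-high fibroblasts, Dpp4, a membrane peptidase, at 8.76 and 33.2, and Wnt2, a WNT ligand, at 11.5 and 40.4. Has1, a hyaluronan synthase, stood at 279 and 669. Over the member clusters described further on, Pi16 stood at 27.2, 120, 264 and 74.3 and Dpp4 at 2.31, 8.39, 21.1 and 3.94. The cluster led by Cilp, with 264, thus had Pi16 near the level of Cxcl5-high fibroblasts, while Dpp4 was below it in every cluster. The transcription factors that drive fat cell formation did not differ by 2-fold, with 0 of 10 compared genes called in either direction and a median of -0.36. Cebpb was at 716 and 926, Ebf2 at 34.2 and 32.3, and Cebpa at 8.15 and 5.40. Pparg stood at 1.94 CPM in members.

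**Figure D2:**
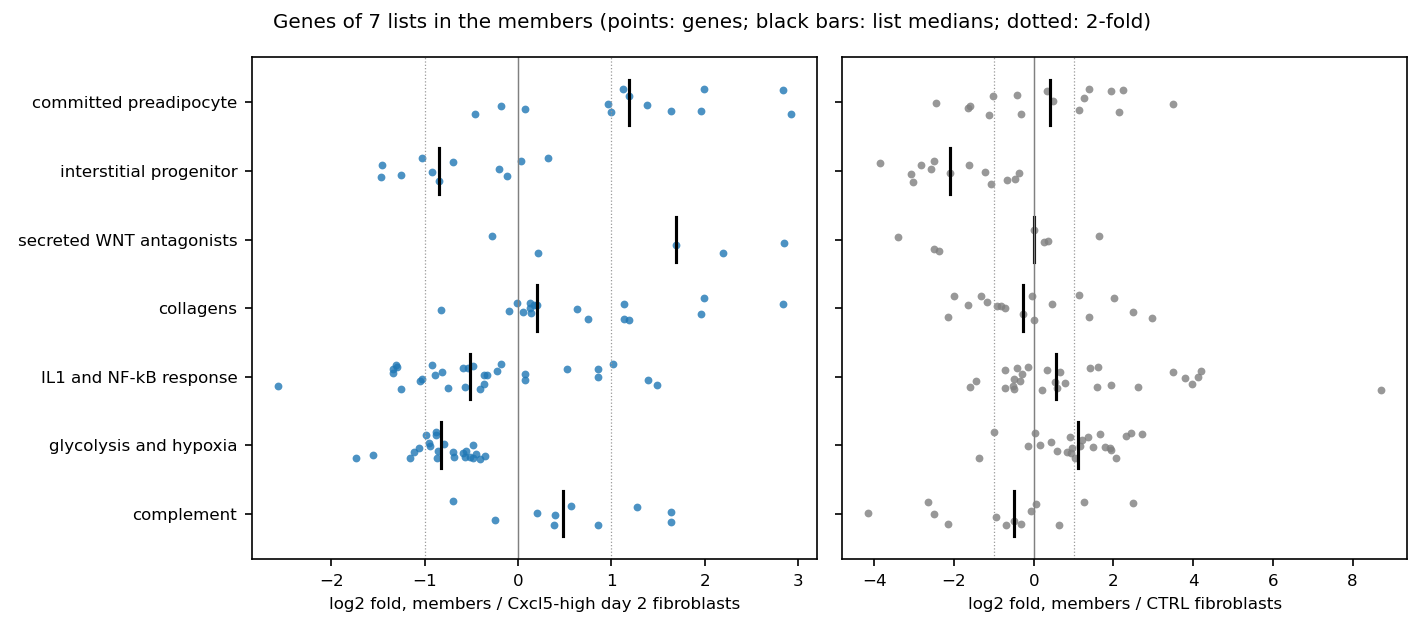
Log2 folds (5 CPM added) of the genes of each list in Cxcl14-high fibroblasts against Cxcl5-high fibroblasts of day 2 and against CTRL fibroblasts; each point is a gene and each bar the median of its list, with lines at -1 and 1. The committed preadipocyte list has a median of 1.19 and the glycolysis and hypoxia list of -0.82 against Cxcl5-high fibroblasts.

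Among WNT genes, 3 of 5 compared secreted antagonists were higher than in Cxcl5-high fibroblasts and none lower, with a median of 1.69, and 1 of the 3 was the label marker Sfrp1. It stood at 234 and 28.2 CPM, Sfrp4 at 113 and 20.7, and Dkk3, a Dickkopf family member, at 29.3 and 5.67. Sfrp2 did not follow, at 394 and 478. Over the member clusters described further on, Sfrp4 stood at 403, 22.9, 56.9 and 17.2 and Sfrp1 at 513, 182, 153 and 110. High Sfrp4 was thus mainly a trait of the cluster with the highest Gdf10 level. Of 8 compared WNT target genes none was called. Axin2, the feedback target most used as a readout, was at 1.83 and 2.04 CPM and Lef1 had 0 UMIs in members, so both lay below the level at which genes were compared. Fzd4, a WNT receptor, was the 1 ligand or receptor called higher, at 27.1 and 8.80, and Wnt2 the 1 called lower.

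Genes of the IL1 and NF-kB response were present in members, and 8 of 30 compared were lower than in Cxcl5-high fibroblasts and 3 higher, with a median of -0.51. The cytokine Il6 stood at 537 CPM in members and 1366 in Cxcl5-high fibroblasts, 2.55-fold (2.47 to 2.62) lower. Ptgs2, the inducible prostaglandin synthase, stood at 753 and 1849.6, and Csf3, the cytokine G-CSF, at 90.5 and 232. Cxcl3, a ligand of the neutrophil receptor Cxcr2 like Cxcl5, stood at 62.1 and 487, 7.83-fold (7.22 to 8.51) lower, and Cxcl1 and Cxcl2 at 2228 and 1189 against 4475 and 2694. On the other side, the protease Mmp3 stood at 1154 and 409, 2.83-fold (2.75 to 2.90) higher, the iron-binding protein Lcn2 at 262 and 96.5, and the cytokine Il11 at 116 and 54.8. The receptor Il1r1 differed little, at 181 and 177. Il1rl1, the receptor of interleukin 33, was lower at 138 against 336. These levels were uneven within members. Over the member clusters described further on, Lcn2 stood at 52.1, 109, 852 and 165 and Il11 at 66.9, 274, 3.92 and 3.44. Il1rl1 stood there at 68.7, 300, 16.2 and 46.2. Cxcl5-high fibroblasts were chosen by Cxcl5, itself a neutrophil-attracting chemokine, so genes that vary with Cxcl5 could be lower in members through that choice. The size of this part was not tested. Against all other day 2 fibroblasts the calls on this list were mostly upward. There, 4 of 30 IL1 and NF-kB response genes passed the limit upward and 1 downward, although the list median was -0.33.

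Of 24 glycolysis and hypoxia genes compared, 5 were lower and none higher, with a median of -0.82. Slc16a3, the lactate exporter of glycolytic cells, stood at 68.0 CPM in members and 237 in Cxcl5-high fibroblasts, Bnip3, a hypoxia-induced mitophagy gene, at 37.8 and 121, and Gapdh at 1261 and 2044. None of the 23 respiratory chain genes passed the limit, with a median of 0.39. Other named genes on the lower side were Nos2, inducible nitric oxide synthase, at 7.64 and 74.3, Serpinb2, a plasminogen activator inhibitor, at 439 and 2074, the keratin gene Krt23 at 2.75 and 59.8, and Igfbp3 at 27.0 and 137. Vegfa and Pgf, which act on blood vessels, stood at 76.6 and 29.4 in members and 177 and 82.8 in Cxcl5-high fibroblasts.

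Of 17 collagens compared, 6 were higher and none lower: the basement membrane chains Col4a1, Col4a2 and Col15a1 and the beaded filament chains Col6a1, Col6a2 and Col6a3. Col6a3 stood at 518 and 232 CPM, while the fibrillar chain Col1a1 stood at 9823 and 9477. Of 27 other matrix genes 3 were higher, Lum, Eln and Mfap4, and Has1 was lower. Eln, elastin, stood at 131 and 24.6, 5.32-fold (4.86 to 5.83) higher, and Mfap4, a partner of elastic fibres, at 38.6 and 6.46. In the complement list 3 of 10 were higher, among them C2 at 68.7 and 18.7 and C4b at 163 and 64.7. Of the IGF binding list, Igfbp4, Igfbp5 and Igfbp7 were higher and Igfbp3 lower, with Igfbp4 at 568 and 159.9.

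The 451 dividing barcodes with at least 10 Cxcl14 UMIs and more Cxcl14 than Cxcl5 are not members, so they give the same contrast in other cells of the same library. Against the other 1591 dividing day 2 fibroblasts, 51 of 7680 genes (0.664%) were called higher. Another 39 (0.508%) were called lower, and the median over all genes was -0.07. Gdf10 stood at 101 CPM in the dividing Cxcl14-high barcodes and 17.3 in the other dividing ones, 5.82-fold (5.37 to 6.30) higher. Sfrp1 stood at 185 and 34.6, 5.34-fold (5.04 to 5.65) higher, Cxcl12 at 786 and 431, and Steap4 at 149 and 114, a log2 fold of 0.37 that did not reach the limit. Apoe, Col15a1 and Mgst3, a glutathione transferase, were among the other genes on the higher side, with Apoe at 87.3 and 9.96. Of 93 genes called higher in members than in Cxcl5-high fibroblasts, leaving out Cxcl14, 82 were compared here. All 82 had a log2 fold above 0 in the dividing barcodes, 43 passed the limit and their median was 1.04. Of 92 called lower, 90 were compared, all 90 were below 0, 32 passed the limit and the median was -0.90. Both contrasts were split by the same genes of the same library, so their likeness is a description.

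**Figure D3:**
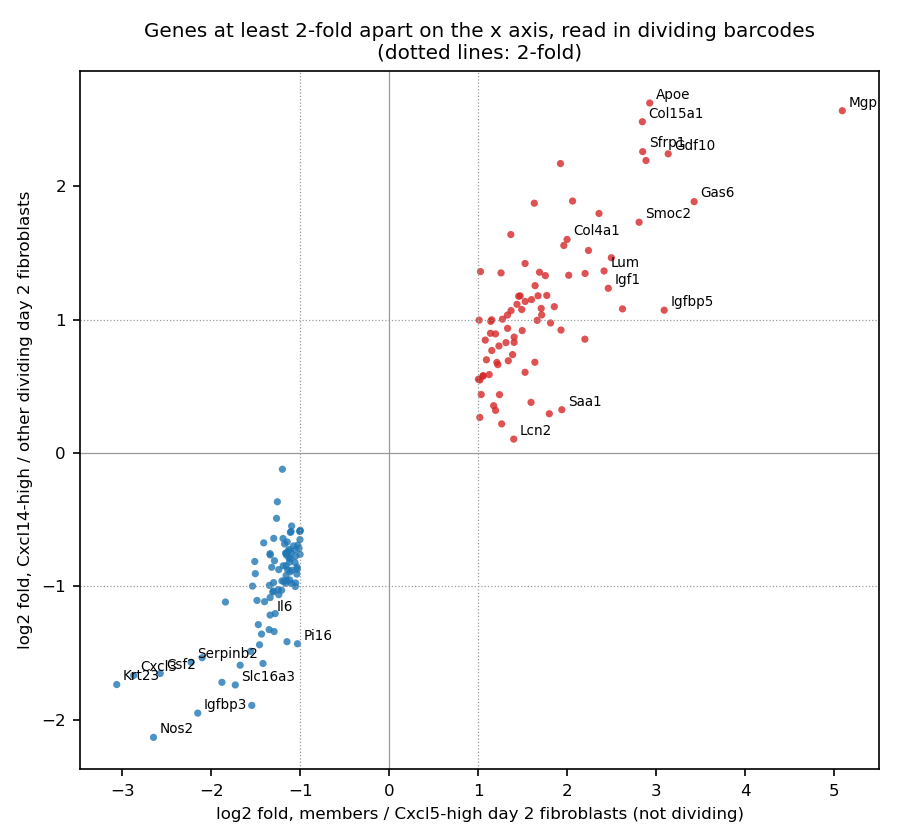
Log2 folds of the genes called in Cxcl14-high against Cxcl5-high day 2 fibroblasts (x axis) and of the same genes in Cxcl14-high against other dividing day 2 fibroblasts (y axis), with 5 CPM added to each level; each of 172 points is a gene. The 82 genes higher on the x axis and the 90 lower ones kept their sign on the y axis.

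Not all of the pattern was as large in dividing cells. Igf1 was at 89.8 CPM in the dividing Cxcl14-high barcodes, against 291 in members, and Igfbp5 at 69.2 against 285. Lcn2 stood at 104 and 96.3 in the 2 dividing groups, a log2 fold of 0.10. Saa1, a serum amyloid, stood at 23.4 and 17.7, a log2 fold of 0.32, although it was at 101 in members and 22.8 in Cxcl5-high fibroblasts. The difference between the contrasts was not tested. Against all 2042 dividing day 2 fibroblasts, members were higher in 94 of 7641 genes (1.23%) and lower in 201 (2.63%), the latter fixed in part by the limit on mitosis genes. In that comparison Gdf10 was 5.67-fold (5.34 to 6.02) higher in members, Sfrp1 3.61-fold (3.43 to 3.79) and Mgp 21.3-fold (19.7 to 23.0).

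The genes whose counts were most like those of Cxcl14 over single barcodes were taken as a description, since Cxcl14 also chose the members. Spearman correlations with Cxcl14 were taken over 1596 day 2 fibroblasts that were not dividing, each thinned to 10000 UMIs, with 349 shallower barcodes left out and 7264 genes ranked. The most like genes were Bgn (biglycan, 0.51), Gsn (gelsolin, 0.48), Col4a1 (0.43), Col4a2 (0.41), Igfbp7 (0.40), S100a4 (0.38), Col15a1 (0.37), Sfrp1 (0.36), Mgst3 (0.35) and Apoe (0.34). The most unlike were Sbsn (-0.38), Gapdh (-0.37), Serpinb2 (-0.37), Ptgis, prostacyclin synthase (-0.37), and Tnfaip6, an IL1-induced hyaluronan-binding protein (-0.36). Gdf10 had 0.34, Cxcl12 0.34 and Steap4 0.19. The barcodes come from 1 library and share its free RNA, and the values are moderate at most.

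Within the 466 members, Leiden clustering gave 4 groups, and Gdf10 was concentrated in 1 of them. Clusters are described by their leading genes, which defined them and are not results of a comparison. The first group held 141 members (30.3%) and was led by Sfrp4, Hist1h2ap, Igfbp5 and Gdf10, with Gdf10 at 586 CPM and a Gdf10 UMI in 87.9% of its barcodes. Its levels of Sfrp1 and Mgp were 513 and 756. The next held 136 members and was led by the EGF family ligand Ereg (1149) and by Il11 (274), with the activin subunit Inhba at 356, Serpinb2 at 941 and Cxcl5 at 1212. Gdf10 stood at 114 there and Mgp at 12.3. Then came 109 members led by Cilp (183), Saa1 (343), Lcn2 (852) and Thbs4 (349), with Steap4 at 638 and Gdf10 at 31.4, a UMI in 21.1%. The last held 80 members with Acta2 at 206, Tagln, a smooth muscle actin-binding protein, at 71.3 and the neutrophil gene S100a9 at 156. Its Gdf10 level was 76.3.

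**Figure D4:**
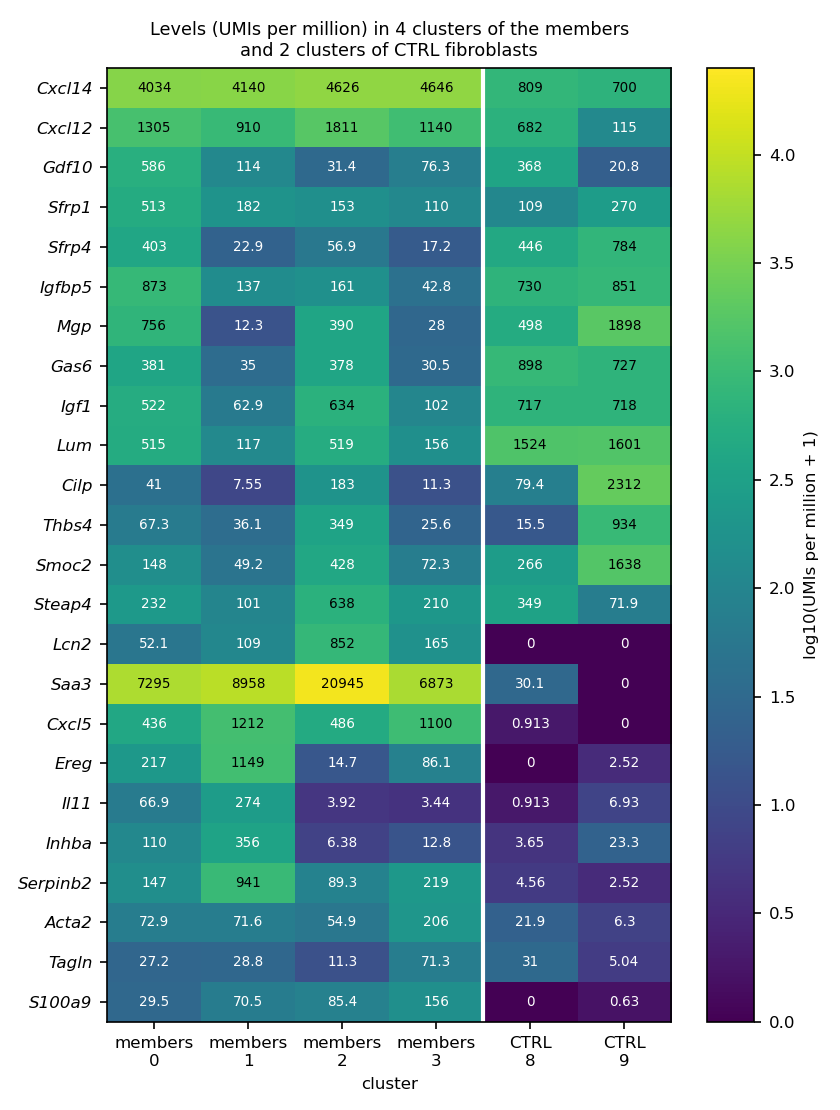
Levels of the named genes, in CPM, in each of the 4 clusters of Cxcl14-high fibroblasts (members 0 to 3, of 141, 136, 109 and 80 barcodes) and in 2 clusters of CTRL fibroblasts (219 and 205 barcodes); colour is on a log scale. Gdf10 is at 586 in the first cluster and between 31.4 and 114 in the other member clusters, while Thbs4 is at 349 in the third and at 934 in the right-hand CTRL cluster.

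Median depth was 13644 UMIs in the Gdf10 group, 24467 in the Ereg group, 17453 in the Cilp group and 25752 in the Acta2 group, so depth moved with the grouping and its part was not tested. To set the genes side by side at equal depth, barcodes were thinned to 5000 UMIs, leaving 440 members. Gdf10 was found with no Thbs4 or Cilp in 156, Thbs4 or Cilp with no Gdf10 in 44, both in 20 and neither in 220. If the genes were independent, the shares would give 25.6 members with both, so over single members Gdf10 and Thbs4 or Cilp were not clearly separate. At this depth 40.0% of members had a Gdf10 UMI and 14.5% a Thbs4 or Cilp UMI, against 7.57% and 3.22% of the other day 2 fibroblasts that were not dividing. Clustered among all day 2 fibroblasts, members fell mainly into a cluster led by Mgp, Gdf10 and Gas6 (145 of its 249 barcodes were members) and one led by Thbs4, Cilp and Smoc2 (101 of 147). A further 77 members were among 458 barcodes of a cluster led by Apoe, Crabp1 and Col15a1, which also held 233 of the 451 dividing Cxcl14-high barcodes.

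Against CTRL fibroblasts, Cxcl14-high fibroblasts differed in many more genes, with 1036 of 7727 (13.4%) higher, 974 (12.6%) lower and a median over all genes of 0.08. Scaling by trimmed means (TMM) shifted all log2 folds by -0.17 and gave 776 higher and 1208 lower. The genes with the highest ratios included Saa3, Timp1, Prg4, Tnc, Ereg, Car4, Saa1, Csf3, Il11, Rgs16 and Lcn2. Saa3, the serum amyloid of fibroblasts and macrophages, stood at 10648 CPM in members and 20.3 in CTRL, and the protease inhibitor Timp1 at 8105 and 53.4, 152-fold higher. The wound matrix protein Tnc, tenascin C, stood at 1084 and 17.4, and Prg4 (lubricin) at 1064 and 8.52. These genes were not particular to members among day 2 fibroblasts: Saa3 stood at 6752, Timp1 at 5852 and Tnc at 705 in the other day 2 fibroblasts.

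The genes named on the lower side were mostly of keratinocytes: Lgals7, Krtdap, Krt77, Krt1, Calm4, Ly6d, Perp, Krt10, Dmkn and Sfn, with Ctla2a and Scara5 the exceptions. Krt10 stood at 15.4 CPM in members and 662 in CTRL fibroblasts. At least 5 UMIs of Krt1, Krt5, Krt10 and Krt14 together were in 206 of 5087 CTRL fibroblasts (4.05%) and in 0 of 466 members, which allows a share of up to 0.644%, so keratinocyte RNA in CTRL barcodes moved with this contrast. Scara5, a ferritin receptor of fibroblasts, stood at 7.54 and 393, 52.1-fold (41.5 to 66.4) lower. Beyond the keratinocyte genes, and chosen after their values were seen, Grem1, a BMP antagonist, stood at 2.95 and 141 CPM, and C1qtnf3, a secreted protein of the C1q family, at 3.26 and 143.

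By list, all 7 antimicrobial and acute phase genes compared with CTRL were higher, with a median of 3.93, and the median was 1.38 for chemokines, 10 of 16 higher and 1 lower. The committed preadipocyte list was mixed, with 7 higher and 5 lower of 16. Cxcl12, Fabp4 (71.0 and 11.1), Ggt5 (57.2 and 9.02) and Col4a1 (699.7 and 267) were higher, while Apoe (101 and 577), Col15a1 (87.8 and 288) and Icam1 (59.8 and 191) were lower. The interstitial progenitor list had 10 of 13 lower and none higher, with Dpp4 at 8.76 and 193, 22.0-fold (17.8 to 27.5) lower, and Pi16 at 119.8 and 1006. Of 14 WNT targets, 7 were lower and 2 higher, with Axin2 at 1.83 and 27.3, Twist1 at 82.1 and 413 and, on the higher side, Wisp1 at 139.7 and 18.9. Of 24 glycolysis and hypoxia genes 13 were higher and 2 lower, with Ldha, lactate dehydrogenase, at 576 and 133. In the matrix list other than collagens, 13 of 29 were lower and 3 higher. Mfap4 stood at 38.6 and 551 and Lum at 296 and 1373, so genes higher in members than in their day 2 neighbours could still be well below the level of unwounded skin.

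The 69 CTRL barcodes that met the same limits had Gdf10 at 80.8 CPM, Sfrp1 at 175, Cxcl12 at 291 and Steap4 at 152. Members stood above them by 2.39-fold (1.85 to 3.14) for Gdf10, 4.23-fold (3.70 to 4.86) for Cxcl12, 1.73-fold (1.44 to 2.11) for Steap4 and 1.34-fold (1.12 to 1.61) for Sfrp1. Of 7943 genes, 978 (12.3%) were higher in members and 1289 (16.2%) lower. Timp1 stood at 8105 and 78.1 CPM, and Saa3, at 10648 in members, had 2 UMIs in the 69 barcodes. Tnc, Lcn2, the receptor Il1rl1 and the protease Adam12 were at 0 there, below 3.97 CPM, and at 1084, 262, 138 and 122 in members. Cilp (52.1 and 349), Gas6 (182 and 547) and Mgp (258 and 663) were lower in members, with ratios of 6.71-fold, 3.01-fold and 2.57-fold against CTRL. Among these 69 barcodes 7 held at least 5 keratin UMIs, and their median depth was 7210 UMIs.

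In unwounded skin, different clusters had the high levels of Gdf10 and of Thbs4 and Cilp. Of 5087 CTRL fibroblasts, 1 cluster of 219 barcodes was led by Car3, Steap4, Vtn and Cxcl14 and held 27 of the 69 barcodes. It had Gdf10 at 368 CPM, Steap4 at 349, Cxcl14 at 809 and Thbs4 at 15.5. Another of 205 was led by Thbs4, Mgp and Col8a1 and held 31, with Thbs4 at 934, Cilp at 2312, Cxcl14 at 700.4 and Gdf10 at 20.8. A keratin-led cluster held 7 more. Thinned to 5000 UMIs, 370 of 4554 CTRL fibroblasts had Gdf10 and no Thbs4 or Cilp, 977 the reverse and 29 both, where independence would give 88.1. Of the 57 CTRL barcodes of the same limits that were deep enough, 4 had both, against 7.07. Within CTRL, the 69 barcodes against the other 5018 had 616 of 7773 genes higher (7.92%) and 239 lower (3.07%). The 6 named on the higher side, such as Krtdap, Krt77 and Dmkn, are keratinocyte genes, and without barcodes of at least 5 keratin UMIs, an alternative added after seeing the data, the counts were 349 and 236. With TMM scaling they were 513 and 347, and with a Cxcl14 minimum of 20 UMIs 748 and 593. Gdf10 stood at 80.8 and 26.4 CPM in this comparison, 3.06-fold (2.33 to 3.96) higher, Steap4 at 152 and 14.2, and Cxcl12 at 291 and 103. Of 87 genes called higher in members than in other day 2 fibroblasts, leaving out Cxcl14, 74 were compared in CTRL, where 36 were higher and 9 lower. The difference between the libraries was not tested.

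At day 7 the 35 barcodes of the same limits had Cxcl14 at 817 CPM, Gdf10 at 45.3 and Sfrp1 at 292, and the other PWD7 fibroblasts had 32.7, 32.1 and 109.7. Cxcl12 stood at 505 and 253, and Steap4 at 49.8 and 37.6. Gdf10 was 1.41-fold (1.05 to 1.87) higher in the 35, a smaller ratio than at day 2, though that difference was not tested. Of 7998 genes, 62 (0.775%) were higher and 196 (2.45%) lower, the latter led by cell cycle genes, on which the limits bear. These counts moved with the processing, to 518 and 865 with barcodes thinned to 3000 UMIs and to 182 and 392 with a Cxcl14 minimum of 20 UMIs. Cilp, Mgp, Gas6, Igfbp5, Eln and Ctla2a were the named genes on the higher side, with Mgp at 779 and 218 and Cilp at 220.5 and 47.1. Of the 87 genes higher in members, 82 were compared at day 7, 70 were above 0 and 18 passed the limit. The 35 barcodes hold few UMIs, and the part of 1 or a few barcodes in these sums was not tested.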

How the data were processed

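Single-cell RNA was measured in 3 libraries, 1 per group. The authors deposited a count matrix per library, with the raw number of UMIs of each gene in each barcode called as a cell. The submitters' processing notes name Cell Ranger 3.0.2, the mm10 build and Seurat 3.0, whereas the file headers name Cell Ranger 5.0.0. How cells were called is not stated there. GENCODE M21 on GRCm38 held 27645 of the 27998 identifiers and gave the positions (1-based).

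Barcodes were kept with at least 200 genes and at most 10% mitochondrial UMIs, leaving 10297 in CTRL, 7945 in PWD2 and 5142 in PWD7. UMIs were summed over each group and scaled to counts per 1000000 UMIs (CPM). Single levels carry Poisson intervals, ratios exact conditional binomial intervals and shares above 0 Clopper-Pearson intervals, all at 95%. UMIs of 1 library are not independent samples of a condition, so no test was made. Genes with a mean of at least 10 CPM over a pair were compared, with 5 CPM added before the log2 fold and a call at 1 or -1. Named genes needed 50 CPM in the higher group, a UMI in 10% of its barcodes, a call, and 0.2 of the level in blood cells; mitochondrial, ribosomal, haemoglobin and predicted genes were left out. The 12 with the largest log2 folds per direction were named against other day 2 and CTRL fibroblasts and 6 elsewhere, with 4 genes per list and the label markers; further genes were picked from the lists after their values were seen, and a few named genes are not reported here. The members and gene lists were chosen with earlier results of these data known.

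Doublets were scored per library with Scrublet in scanpy 1.11.5. They were kept in the main analysis, since the score's own threshold marked only 2 PWD2 barcodes, and the top 505 PWD2 scores were removed as an alternative. Leiden clustering (leidenalg 0.10.2, 2000 variable genes, 30 components, 20 neighbours, seed 0) was run at resolution 0.5 for members and 1.0 for all fibroblasts of a library. Python 3.11.15, numpy 2.4.6, scipy 1.17.1, pandas 2.3.3 and, for TMM factors only, edgeR 4.0.16 in R 4.3.3 were used. The counting procedure was tested on simulated data. Alternatives covered the Cxcl14 minimum, filters, pseudocount, scaling, depth, doublets and the choice of fibroblast gene.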

Additional observations from a re-analysis of the deposited data

How the results depend on the processing

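No paired analysis was possible because each group had 1 library and the labels give no replicate numbers. The number of members was 334 with barcodes of 10000 to 40000 UMIs, 426 without the top doublet scores, 508 with a Cxcl14 minimum of 400 CPM and 399 with a minimum of 20 UMIs. With a pseudocount of 20 CPM the genes called fell to 101 from 224 against other day 2 fibroblasts, 108 from 187 against Cxcl5-high, 150 from 295 against dividing, 1097 from 2010 against CTRL fibroblasts and 1316 from 2267 for members against CTRL barcodes of the same rule. They were 40 from 90 within dividing barcodes, 503 from 855 within CTRL and 104 from 258 within PWD7. Thinning to 3000 UMIs gave 300 calls against Cxcl5-high fibroblasts and 1383 within PWD7. Within CTRL the Cxcl14-high barcodes gave 352 calls with a minimum of 5 UMIs, 1341 with 20 and 365 with 400 CPM, and within PWD7 412 calls came with no mean minimum and 574 with 20 UMIs. Without dividing comparators the cell cycle list reversed, to a median of 0.0478. Log2 folds were then 0.14 for Cenpf, 0.034 for Nusap1, 0.15 for Tpx2, 0.19 for Ccna2, 0.041 for Smc2 and 0.13 for Prc1. Those of Cdk1, Hmmr and Racgap1 were 0.13, 0.51 and 0.19, and those of the histone genes Hist1h2ap and Hist1h2ae 1.24 and 0.90. With barcodes of at least 5 mitosis gene UMIs left out on both sides, Hist1h2ap thus passed the limit of 1 in members. That limit does not remove every cell with cell cycle RNA, and the highest member held 101 Hist1h2ap UMIs. Its level was 240 CPM in the member cluster with the highest Gdf10 and 16.8, 9.32 and 60.0 in the others, and the reason was not tested. The median of secreted WNT antagonists within CTRL (-1.42) reversed to 1.34 with Dcn in place of Pdgfra, 0.42 at 10000 to 40000 UMIs and 0.10 without keratin-bearing barcodes; the cause was not tested. Of 1098 alternative values for 61 named genes against other day 2 fibroblasts, 1087 kept their direction and 1055 the call; all 238 for 14 genes against Cxcl5-high fibroblasts kept both. Against CTRL fibroblasts 2074 of 2074 kept direction and 2063 the call, for 122 genes. Levels under 3 UMIs per group, or resting on the 69 and 35 barcodes of CTRL and PWD7, are the least precise.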

Other observations

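Further gene groups of Cxcl14-high fibroblasts followed the same pair of comparisons, with Cxcl5-high day 2 fibroblasts named first and CTRL fibroblasts second. Over all genes compared, 1.25% were higher and 1.24% lower than in Cxcl5-high fibroblasts. Against CTRL fibroblasts these shares were 13.4% and 12.6%. Of 19 TGF-beta and activin genes, 1 was higher and 3 lower against Cxcl5-high fibroblasts. Ltbp4, a binding protein that stores TGF-beta in the matrix, stood at 28.1 CPM in members, 3.43 in Cxcl5-high and 72.7 in CTRL fibroblasts, and the ligand Tgfb2 at 56.4, 127 and 170.2. In the myofibroblast list 3 of 19 were higher and none lower, namely S100a4 (888 and 184), Tagln (33.6 and 13.6) and Acta2 (96.2 and 45.3). Tagln and Acta2 are led by the smallest member cluster, which also held S100a9 at 156 CPM, and the part of other cells there was not tested. Among fibroblast transcription factors only Meox2, a homeobox gene, passed the limit against Cxcl5-high fibroblasts, at 33.5 and 7.18, with 13.4 in CTRL. Of 10 BMP antagonists Smoc2 alone was called against Cxcl5-high fibroblasts, while against CTRL 1 of 11 was higher and 5 lower. Of 10 BMP receptors and targets none was called against Cxcl5-high fibroblasts and 1 was lower than in CTRL, counts close to the shares over all genes. Members and Cxcl5-high fibroblasts had Bmpr1a at 58.2 and 44.6 and Id3 at 359 and 324.

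Of 13 genes of metal reductases and iron handling, 9 were higher in members than in CTRL, 2 were lower and the median was 1.46. Besides Steap4 these included Steap1 (48.8 and 1.23), the zinc importer Slc39a14 (315 and 67.7) and ceruloplasmin, Cp (142 and 37.4). Steap1 was at 72.2 and Slc39a14 at 367 in Cxcl5-high fibroblasts, where neither differed from members by 2-fold. Interleukin 33, Il33, an alarmin of stromal cells, stood at 419.9 in members, 743 in Cxcl5-high and 32.7 in CTRL fibroblasts, and its receptor Il1rl1 at 138, 336 and 5.19. The decoy receptor Il1r2 went the other way, at 39.8 in members and 367 in CTRL. None of 13 interferon-induced genes was called against Cxcl5-high fibroblasts, and 3 of 16 were lower than in CTRL, with Irf1 at 93.2 and 340.1. These counts too were close to the shares over all genes. Of 13 prostaglandin and steroid genes 6 were lower than in CTRL and 1 higher, with Tsc22d3 at 18.3 and 207 and Zbtb16 at 3.46 and 75.9.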
